A study of Mus musculus with 40 samples.

Results

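Interleukin receptor chains are the membrane proteins through which CD4 T cells read IL-2, IL-15, IL-7, IL-4, IL-21, IL-6 and IL-10. A list of 10 genes was followed: Il2ra, Il2rb, Il2rg, Il7r, Il15ra, Il4ra, Il21r, Il6ra, Il6st and Il10ra. A probe set was used for a gene when the array's annotation tied it to that gene and to no other, and where a gene had several, the brightest on average over the arrays of that type was kept. By this rule 9 of the 10 had a value among 18194 genes in the sorted T cells, and 8 of the 10 among 17097 genes in the experiment with the ligand. Il2rg, the common gamma chain, was not analysed here on either array type. Il7r had a value in the ligand experiment only through a name carried over from the other array type, and is given apart there.

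These receptors have no kinase of their own. When a cytokine brings the chains together, the Janus kinases bound to their tails phosphorylate STAT factors, which act as transcription factors in the nucleus. Regulatory T cells (Treg), which carry the transcription factor Foxp3 and restrain other T cells, are known for high IL-2 receptor alpha chain (CD25) and low IL-7 receptor alpha chain (CD127), and they depend on IL-2 made by other cells.

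The study measured 40 Affymetrix arrays of mouse CD4+ T cells (C57Bl/6) to ask how the ligand semaphorin-4a acts on Treg through the receptor neuropilin-1. In the first experiment all cells came from Foxp3GFP reporter mice, with bone marrow given as the source, and were kept in culture for 48 h after sorting. Its groups were activated Treg (CD4+ CD45RBlow GFP+, given anti-CD3/CD28, 3 arrays), resting Treg (the same gate, no stimulation, 3 arrays) and resting conventional T cells (CD4+ CD45RBhi GFP-, no stimulation, 2 arrays). The Treg and conventional gates thus differed in CD45RB as well as in the reporter, and no activated conventional cells were measured. In the second experiment CD4+ CD45RBlo Foxp3-YFP+ Treg from spleen and peripheral lymph nodes all received anti-CD3 (1 µg/mL, immobilised), anti-CD28 (2 µg/mL) and recombinant human IL-2 (100 U/mL), so the ligand of Il2ra and Il2rb was added in every group. Its groups, of 8 arrays each, were NRP KO with Sema4a-Ig (Sema), NRP KO with mouse IgG1 (IgG), WT with Sema and WT with IgG, with 10 µg/mL of the protein immobilised. NRP KO cells came from Nrp fl/fl x Foxp3-YFP-iCre mice and WT cells from Foxp3-YFPiCre mice, so both genotypes carried the Foxp3-driven Cre, and deletion is limited to cells in which Foxp3 drives it. One array, WT with Sema replicate 2, is called WT in its title but carries the floxed genotype in its characteristics, and the title was followed. No label states that the arrays of a group come from different animals or cultures, so the p-values reflect the spread of these arrays alone, and that spread may be technical.

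Signal is given as log2 signal, and a gene was called when limma's p-value, adjusted by Benjamini-Hochberg over all genes of its array type, was under 0.05. In the sorted cells the 95th percentile of 39 olfactory receptor genes, which T cells are not known to use, was 5.19 log2 and served as a mark of background. Foxp3 lay at 10.74 to 10.91 log2 in activated Treg and 10.33 to 10.60 in resting Treg, against 3.95 to 4.05 in conventional cells, and Ikzf2, Ctla4 and Nrp1 were also called higher in both Treg groups. The distance between 3' and 5' signal of Actb, a measure of RNA integrity and labelling, was above 4 log2 units in activated Treg 1 and 2 and resting Treg 1 (5.87 to 6.17) and between 1.24 and 2.67 in the other 5 arrays. The 3 arrays with high values are also those with the lowest code numbers in their titles, and both conventional arrays fall among the later codes, so the Actb measure and the order of the codes cannot be told apart. Markers of other cells also differed. The summed signal of 8 B cell markers was 13.57 to 13.78 in activated Treg and 13.60 to 13.75 in resting Treg. In conventional cells it was 12.86 to 12.98. Most of this B cell sum came from Ighm, which averaged 13.62 and 13.65 log2 in those Treg groups, against 12.89 in conventional cells. The sum of 10 CD8 T cell and NK cell markers was 8.49 to 8.68 in activated and 8.66 to 9.14 in resting Treg. It was 12.15 to 12.19 in conventional cells, most of it from Klrd1 (12.03 log2 on average there). For 9 markers of dendritic cells and MHC class II the sum was 9.62 to 10.79 in activated Treg and 9.41 to 11.58 in resting Treg, against 8.61 to 8.68 in conventional cells, without overlap. Of these lists 5 of 8 B cell markers, 5 of 10 CD8 T cell and NK cell markers and 3 of the 9 others had a mean at or below the background mark, and their part in the results was not tested. The sum of 16 myeloid markers, mostly Ctss, was 12.79 to 13.38 in activated and 12.60 to 12.93 in resting Treg. In conventional cells it was 12.79 to 12.85. Of the 16, 12 were higher and 4 lower in activated Treg than in conventional cells, and 6 averaged at or below background. Activated arrays were uneven, with S100a8 at 4.10 to 11.29 log2. Myeloid cells also use Il6ra, Il6st and Il10ra, and the part of this list in their signal was not tested. Fewer cells of a type and less RNA per cell cannot be told apart in such bulk samples.

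In the RefSeq table (assembly GRCm38.p6) 8 of the 10 genes had a promoter entry, which holds 300 bases that run from before a gene's start to just after it. Of these 3 are shown, because Il2ra and Il15ra, direct neighbours on chromosome 2 with 0 protein-coding genes between them, were both higher in Treg, while Il7r was lower. Capitals mark a match to a motif of a factor family active in T cells: STAT (TTCNNNGAA) in Il7r at chr15:9529827-9530126 on the minus strand, and AP-1 (TGANTCA) in the second of the entries of Il15ra at chr2:11705462-11705761 on the plus strand. Il2ra, at chr2:11642542-11642841 on the plus strand, holds none of the motifs searched. Neither does the first Il15ra entry, at chr2:11705043-11705342 on the plus strand, which is not printed.
Il2ra: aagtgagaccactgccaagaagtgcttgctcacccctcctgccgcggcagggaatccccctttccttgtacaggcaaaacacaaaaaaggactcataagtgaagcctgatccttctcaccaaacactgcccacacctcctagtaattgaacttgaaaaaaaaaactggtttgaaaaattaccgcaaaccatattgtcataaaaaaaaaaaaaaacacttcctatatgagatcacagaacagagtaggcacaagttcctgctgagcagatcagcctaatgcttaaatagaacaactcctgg
Il15ra: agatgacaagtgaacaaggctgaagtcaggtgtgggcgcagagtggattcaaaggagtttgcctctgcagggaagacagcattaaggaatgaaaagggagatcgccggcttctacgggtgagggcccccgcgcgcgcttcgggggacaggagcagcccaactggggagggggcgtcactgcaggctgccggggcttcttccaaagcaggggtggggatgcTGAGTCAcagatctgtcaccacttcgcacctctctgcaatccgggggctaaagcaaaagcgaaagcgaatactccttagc
Il7r: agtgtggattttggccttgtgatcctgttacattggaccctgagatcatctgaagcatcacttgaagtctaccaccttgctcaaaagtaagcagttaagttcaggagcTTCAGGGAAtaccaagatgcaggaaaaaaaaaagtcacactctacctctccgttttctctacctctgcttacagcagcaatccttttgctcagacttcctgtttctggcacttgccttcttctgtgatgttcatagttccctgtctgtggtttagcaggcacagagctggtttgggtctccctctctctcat
Both strands were searched in 32851 promoter windows, of which 8.30% held the STAT letters, 7.81% the AP-1 letters and 3.65% the FOXO letters (GTAAACA). The only other match among these genes was a FOXO one in Il21r, and Il2rg, Il4ra, Il6ra and Il6st had none. A match describes these letters in this window and is not a site, and the motifs do not overlap with each other in these windows.

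Resting Treg were first set against resting conventional T cells, to see which receptor chains distinguish unstimulated Treg. All measured chains that bind IL-2 or IL-15 were higher in resting Treg (Il2ra, Il2rb and Il15ra), and the IL-7 receptor chain was lower. Thus 4 of 9 chains were called, 3 higher and 1 lower, where 5.51% of all genes were called, 3.86% higher and 1.65% lower. The median log2 change of the 9 was 0.20, against 0.01 over all genes.

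Il2ra, the alpha chain that turns the IL-2 receptor into its high-affinity form, had 9.76, 9.24 and 8.54 log2 in resting Treg, against 3.67 and 3.72 in conventional cells. The conventional arrays lay below the background mark, and the groups did not overlap. The log2 change was 5.49 ± 0.33 (SE, adjusted p = 7.9e-05), and the resting Treg mean of this probe set lay 15.9-fold above the background mark. A second, dimmer Il2ra probe set changed by 2.17 ± 0.63, which did not pass among all probe sets (adjusted p = 0.125).

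Il2rb, the signalling chain that IL-2 and IL-15 share, had 7.66, 6.95 and 7.62 log2 in resting Treg, against 4.21 and 4.65 in conventional cells. The change was 2.98 ± 0.28 (SE, adjusted p = 0.000643), and the resting Treg mean of this probe set lay 4.67-fold above the background mark. Its second probe set, with a mean of 5.10 log2 at about the background mark, changed by 0.47 ± 0.15 and did not pass (adjusted p = 0.150). Il15ra, which binds IL-15 and can present it to other cells, had 6.63, 7.06 and 7.06 log2 in resting Treg, against 4.79 and 4.82 in conventional cells. It changed by 2.11 ± 0.23 (SE, adjusted p = 0.00131), and the resting Treg mean of this probe set lay 3.32-fold above the background mark. Its second probe set was below that mark on average and changed by 0.33 ± 0.28 (adjusted p = 0.666). Each of these genes thus had a second probe set with a smaller change, and in each the group means of conventional cells were at background for the brighter one.

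Il7r, the IL-7 receptor alpha chain, was the brightest probe set of the list and had 13.41, 13.57 and 13.60 log2 in resting Treg, against 14.27 and 14.32 in conventional cells. The groups did not overlap, and the change was -0.77 ± 0.15 (SE, adjusted p = 0.0210). The call was lost without resting Treg 1 (adjusted p = 0.0562), resting Treg 2 (0.0515), conventional 1 (0.204) or conventional 2 (0.215), with the change at -0.79 to -0.71 each time. Its second probe set, at a mean of 11.58 log2, fell by 1.70 ± 0.24 and passed (adjusted p = 0.00954).

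The other 5 chains did not pass. Il6st, the gp130 chain shared by IL-6, IL-11, LIF, oncostatin M and IL-27 receptors, had 11.63, 11.24 and 11.06 log2 in resting Treg, against 10.76 and 11.03 in conventional cells, a change of 0.41 ± 0.21 (adjusted p = 0.367). Its next probe set was called (1.09 ± 0.21, adjusted p = 0.0296), while another pointed the other way at -1.11 ± 0.44 (adjusted p = 0.262). Il4ra, the chain shared by IL-4 and IL-13 receptors, changed by -0.36 ± 0.22 (adjusted p = 0.456) without overlap between the groups, and only its dimmest probe set, close to the background mark, passed (-1.04 ± 0.17, adjusted p = 0.0158). Il6ra, the IL-6 binding chain, changed by -0.72 ± 0.66 (adjusted p = 0.662), Il10ra, the IL-10 binding chain, by 0.20 ± 0.30 (adjusted p = 0.815) and Il21r by -0.10 ± 0.46 (adjusted p = 0.952). In all, 6 of the 9 chains did not overlap between resting Treg and conventional cells, 4 higher and 2 lower, where 42% of all genes did not overlap (21.6% higher, 20.4% lower).

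**Figure D1:**
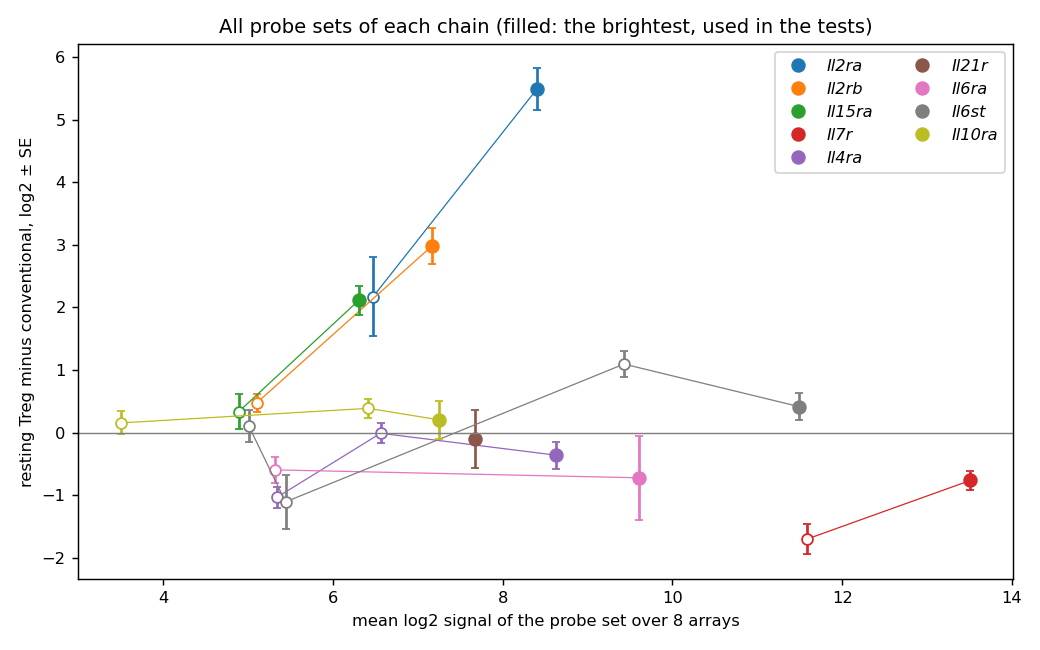
Change between resting Treg and resting conventional T cells (y axis, log2 ± SE) of every probe set of each chain, against its mean log2 signal over the 8 arrays (x axis). Filled points are the brightest probe set of a gene, used in the tests, and lines join probe sets of the same gene. Il2ra, Il2rb and Il15ra fall toward 0 in their dimmer probe sets, Il7r lies below 0 in both, and Il6st has probe sets on both sides of 0.

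Activated Treg were then set against resting Treg, to see how the chains changed with anti-CD3/CD28. None of the 9 chains was called by limma, where 0.742% of all genes were called, while 6 of the 9 had an unadjusted p under 0.05, as did 2095 genes in all. The 3 chains with the largest sizes were Il6ra (-2.34), Il2ra (1.59) and Il2rb (1.34). The median of the 9 was -0.13, against 0.00 over all genes.

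Il2ra had 10.72, 11.05 and 10.53 log2 in activated Treg, against 9.76, 9.24 and 8.54 in resting Treg. All activated arrays were above all resting ones, and the change of 1.59 ± 0.30 (SE) had an adjusted p of 0.0605. Over 16 alternatives its adjusted p ran between 0.00770 and 0.197, and it was called in 5 of them, among them without resting Treg 1 (1.88, adjusted p = 0.0365). Il2rb had 8.46, 9.04 and 8.74 log2 in activated Treg, against 7.66, 6.95 and 7.62 in resting Treg, a change of 1.34 ± 0.25 with an adjusted p of 0.0615. It was called with arrays whose title codes differ in the last digit alone as a block (1.57, adjusted p = 0.0444). The second probe sets changed by 1.66 ± 0.57 for Il2ra and 0.56 ± 0.13 for Il2rb, neither passing.

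Il15ra did not follow these chains, with 6.55, 6.47 and 7.06 log2 in activated Treg, against 6.63, 7.06 and 7.06 in resting Treg (-0.23 ± 0.20, adjusted p = 0.769, 95% interval -0.69 to 0.24). Il7r had 13.01, 12.96 and 12.93 log2 in activated Treg, against 13.41, 13.57 and 13.60 in resting Treg. These did not overlap, and the change was -0.56 ± 0.13 (adjusted p = 0.121), called in 2 of 16 alternatives, with array weights (-0.58, adjusted p = 0.0340) and with a prior variance that follows the mean signal (adjusted p = 0.0147).

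The IL-6 receptor chains stood on opposite sides of 0. Il6ra had 7.04, 7.98 and 8.86 log2 in activated Treg, against 9.21, 11.18 and 10.50 in resting Treg, a change of -2.34 ± 0.59 (adjusted p = 0.142). Il6st had 11.94, 12.01 and 12.23 log2 in activated Treg, against 11.63, 11.24 and 11.06 in resting Treg, a change of 0.75 ± 0.19 (adjusted p = 0.140). Neither gene overlapped between the groups, yet the second Il6ra probe set changed by 0.10 ± 0.18 and the second Il6st probe set by 0.11 ± 0.19. Il10ra changed by -0.75 ± 0.27 (adjusted p = 0.309), Il4ra by -0.13 ± 0.19 (adjusted p = 0.866) and Il21r by -0.10 ± 0.41 (adjusted p = 0.961). The dimmer Il10ra probe sets changed by -0.13 ± 0.13 and 0.10 ± 0.17. In all, 5 chains did not overlap, 3 higher and 2 lower, where 13% of all genes did not overlap (6.03% higher, 6.94% lower).

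**Figure D2:**
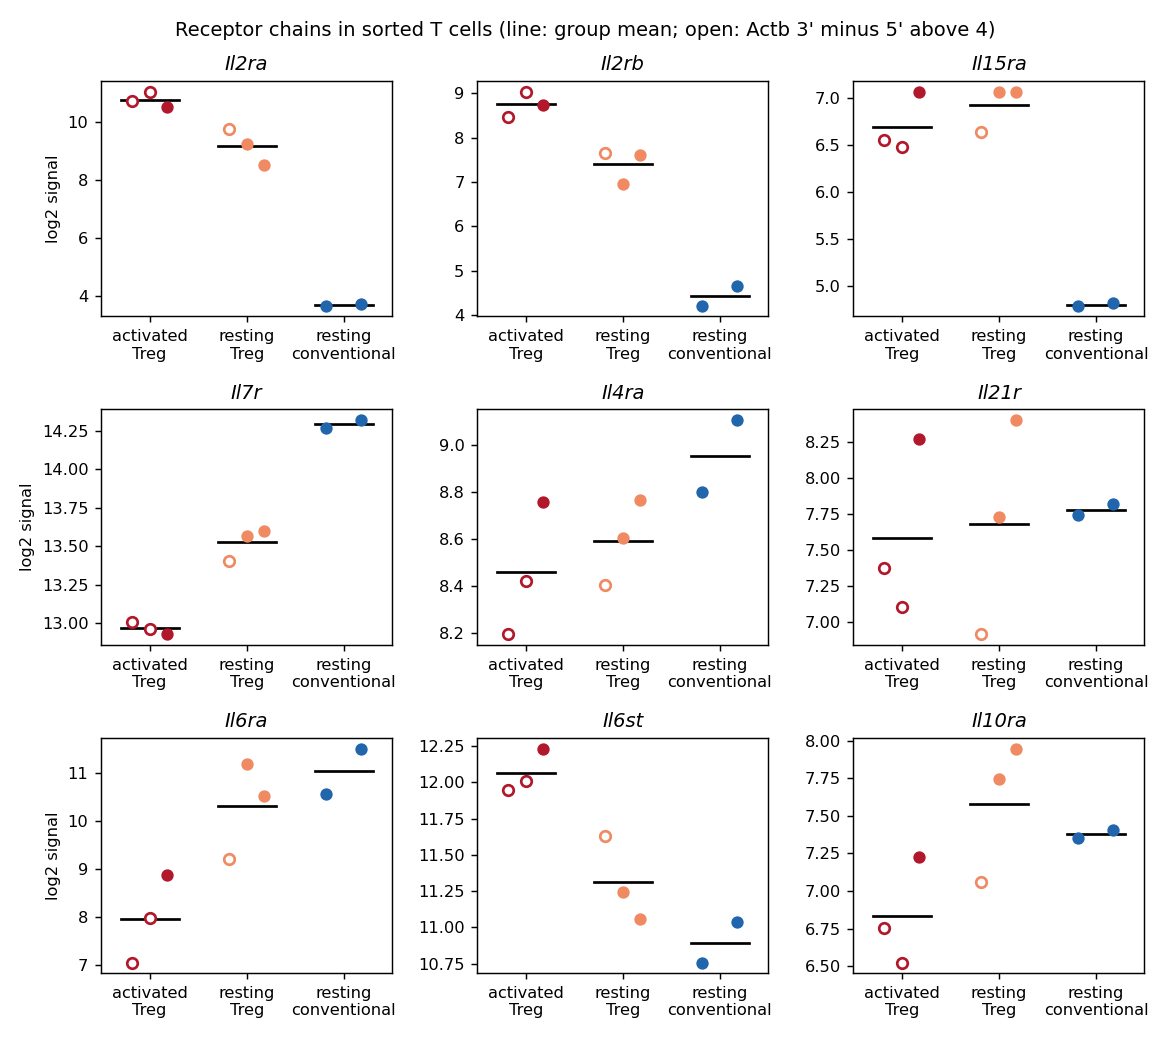
log2 signal (y axes, each with its own range) of the 9 measured chains in the 8 sorted T cell arrays, with activated Treg, resting Treg and resting conventional T cells from left to right. Points are arrays, lines are group means, and open points are the 3 arrays whose Actb 3' minus 5' signal was above 4. Il2ra and Il2rb step down from activated Treg to conventional cells and Il7r steps up, while in Il15ra, Il4ra, Il21r, Il6ra and Il10ra the open points lie lowest in both Treg groups.

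In 5 of the 9 chains signal was lower in both Treg groups where the Actb measure was high, and in Il2ra it was higher. The share of all genes with such an order was not counted. For Il6ra, Il21r, Il10ra, Il15ra and Il4ra the array with the high value in resting Treg, resting Treg 1, was the lowest of its group (9.21, 6.91, 7.06, 6.63 and 8.40). In activated Treg the array with the low value, activated Treg 3, was the highest of its group for the same chains (8.86, 8.27, 7.23, 7.06 and 8.76). Il2ra had the reverse order, with resting Treg 1 the highest of its group (9.76) and activated Treg 3 the lowest (10.53). Among arrays of like Actb value the activated minus resting difference of Il6ra was -1.70 in the high class (2 activated against 1 resting) and -1.98 in the low class (1 against 2), against -2.34 over all arrays. For Il10ra it was -0.42 and -0.62, against -0.75 over all arrays, and for Il15ra -0.12 and -0.00, against -0.23. Il21r had 0.33 and 0.21 within the classes and -0.10 over all arrays, and Il4ra -0.10 and 0.07 within the classes and -0.13 over all arrays, so the sign of neither held. For Il2ra the values were 1.13 and 1.64, for Il2rb 1.09 and 1.46, for Il7r -0.42 and -0.66, and for Il6st 0.35 and 1.08. Since these chains and Il6ra do not overlap between the Treg groups, any subset of the arrays gives the same sign. With the Actb class as a block Il2ra was called between activated and resting Treg (1.38, adjusted p = 0.0352), and no other call of a chain in the 3 comparisons changed. Between resting Treg and conventional cells the low class (2 against 2) gave 5.20 for Il2ra, 2.85 for Il2rb, 2.26 for Il15ra and -0.71 for Il7r. The part of the Actb measure in these values cannot be told apart from that of the code order.

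Activated Treg against resting conventional T cells, which differ in both cell type and stimulation, gave 6 calls among the 9, 4 higher and 2 lower, where 9.7% of all genes were called (5.93% higher, 3.77% lower). This comparison shares its arrays with the others, so its calls are not separate evidence. Il2ra changed by 7.07 ± 0.33 (adjusted p = 1.64e-05), Il2rb by 4.32 ± 0.28 (adjusted p = 7.85e-05) and Il15ra by 1.89 ± 0.23 (adjusted p = 0.00157). The activated Treg means of these probe sets lay 47.8-fold, 11.8-fold and 2.84-fold above the background mark. Il7r changed by -1.33 ± 0.15 (adjusted p = 0.00102), and its second probe set by -2.68 ± 0.24. The second probe sets of Il2ra (3.83, adjusted p = 0.0113) and Il2rb (1.03, adjusted p = 0.00611) also passed, while that of Il15ra was at 0.00 (adjusted p = 0.997). With the mean of its probe sets the Il15ra change was 0.95 (adjusted p = 0.0377).

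The IL-6 receptor chains passed in this comparison. Il6ra, at 7.04, 7.98 and 8.86 log2 in activated Treg, against 10.55 and 11.50 in conventional cells, changed by -3.06 ± 0.66 (adjusted p = 0.0233). It lost its call with the Actb measure as a covariate (-1.69, adjusted p = 0.138) and without activated Treg 1 (adjusted p = 0.0702), activated Treg 2 (0.0734), conventional 1 (0.0946) or conventional 2 (0.204). Its second probe set changed by -0.50 (adjusted p = 0.232), and the mean of its probe sets by -1.78 (adjusted p = 0.0225). Il6st, at 11.94, 12.01 and 12.23 log2 in activated Treg, against 10.76 and 11.03 in conventional cells, changed by 1.17 ± 0.21 (adjusted p = 0.0109). It lost its call without conventional 1 (1.03, adjusted p = 0.147) or conventional 2 (1.31, adjusted p = 0.0643), with the Actb covariate (1.07, adjusted p = 0.0679) and with the mean of its probe sets (0.47, adjusted p = 0.115). With the same runs of title codes as a block neither passed, with Il6ra at -1.86 (adjusted p = 0.0679) and Il6st at 1.12 (adjusted p = 0.0615). The second Il6st probe set passed (1.20 ± 0.21, adjusted p = 0.0136), while its dimmer ones (-0.57 and 0.09) did not. Il10ra (-0.55 ± 0.30), Il4ra (-0.50 ± 0.22) and Il21r (-0.20 ± 0.46) did not pass. Only the dimmest Il4ra probe set, close to the background mark, did (-1.17 ± 0.17, adjusted p = 0.00651). Il4ra and Il10ra were lower without overlap, and 8 of the 9 chains did not overlap in this comparison, where 41.1% of all genes did not (21.4% higher, 19.7% lower).

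**Figure D3:**
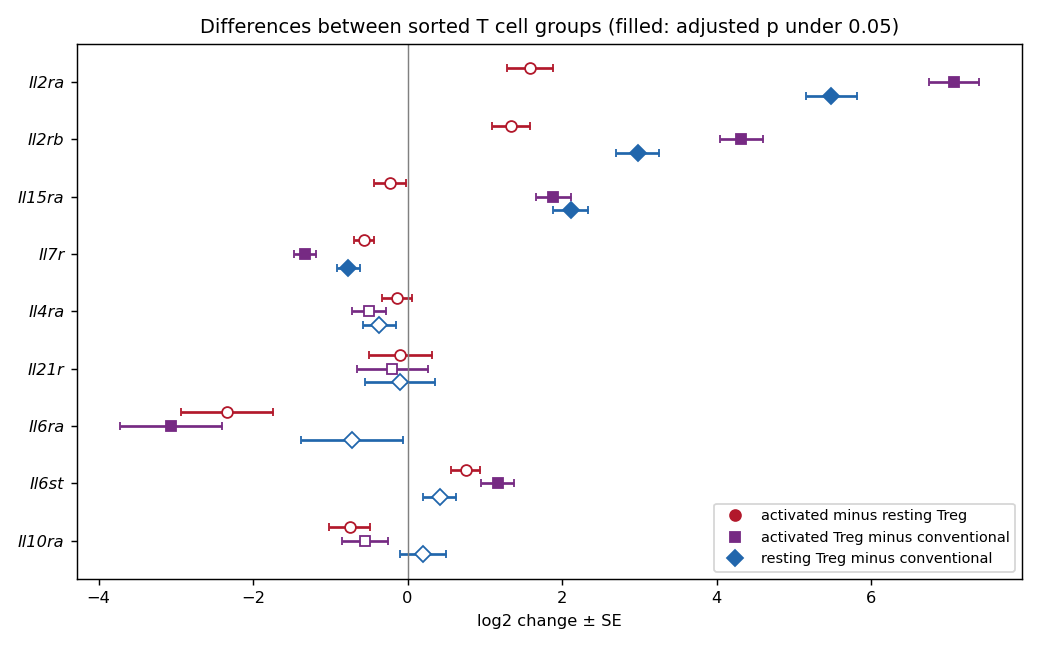
log2 change ± SE (x axis) of the 9 chains in the 3 comparisons of sorted T cells, with filled symbols where the adjusted p was under 0.05. Il2ra reaches 7.07 and 5.49 against conventional cells and 1.59 between the Treg groups. Il6ra, Il7r, Il4ra and Il21r lie below 0 in all 3 comparisons.

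The genes whose profile over the 8 sorted arrays was most like that of Il2ra, by the mean absolute distance of centred log2 values, were Cd83 (0.40), Ctla4 (0.48) and Itgae (0.49). They were 5.71, 6.20 and 5.71 log2 units higher in resting Treg than in conventional cells, and 0.90, 0.36 and 0.81 higher in activated than in resting Treg. For Il7r they were Ddx58 (0.09), Clip1 (0.10) and Thy1 (0.10), which were 0.56, 0.64 and 0.72 log2 units lower in resting Treg than in conventional cells.

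Around the receptors, the genes for their ligands, partner chains, kinases and inhibitors were counted from fixed lists. Of 13 measured cytokine ligands 1 was higher in activated than in resting Treg, Il10 (3.34 ± 0.47). Its receptor chain Il10ra was at -0.75 by the brightest probe set in the same comparison and did not pass. Between resting Treg and conventional cells Ebi3, a subunit of IL-27 and IL-35, was higher (2.62) and Il2 lower (-0.85), although the mean of Il2 was at or below the background mark, as was that of 9 of the 13. In activated Treg against conventional cells Il10 (4.45) and Ebi3 (3.11) were higher and Osm (-0.96) lower. Of 20 other interleukin and gp130 family chains none was called between the Treg groups. Il1r2, the IL-1 decoy receptor, was called higher in resting Treg (2.35) and activated Treg (4.44) than in conventional cells. The same held for Il12rb1, a chain of the IL-12 and IL-23 receptors (1.78 and 2.68), and for Il3ra (0.87 and 1.00), while Il17ra was lower in activated Treg than in conventional cells (-1.02).

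Of 10 measured Janus kinases and STAT factors none was called between the Treg groups, and 1 was called in resting Treg against conventional cells. This was Stat5a, a factor that IL-2 and IL-7 receptors activate, which was higher by 2.40 ± 0.53, and by 2.57 in activated Treg. In activated Treg against conventional cells Tyk2 was also higher (0.68) and Jak1 lower (-1.35). Of 16 feedback inhibitors and receptor sheddases, 3 were higher and 3 lower in each Treg group against conventional cells, and none was called between the Treg groups. The STAT5 target genes Socs2 (3.20 in resting and 4.61 in activated Treg) and Cish (2.16 and 2.81) and the inhibitor Socs5 (1.74 and 1.32) were higher. Pias1 (-1.54 and -1.61), Socs1 (-1.09 and -1.07) and Socs3 (-1.08 and -1.38), the last an inhibitor that binds gp130, were lower.

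In the ligand experiment the arrays form 16 pairs of a Sema and an IgG array of the same genotype, and in the deposited values every pair had the same mean at each probe set, within 6.0e-05 log2. Only the difference within a pair carries information, so levels cannot be compared between NRP KO and WT, and Nrp1 cannot check the genotype labels: it averaged 8.75 log2 in NRP KO with Sema and 8.41 in NRP KO with IgG, against 8.77 in WT with Sema and 8.40 in WT with IgG. Foxp3 averaged 3.55 log2, under the 95th percentile of 41 olfactory receptor genes (3.87), so the Treg label rests on the sort and on other markers: Ikzf2 averaged 11.14 and 11.07 log2 in NRP KO and 11.25 and 10.96 in WT, with Sema and with IgG. All 8 measured chains were above that background mark.

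In WT cells Sema was set against IgG to see whether the ligand of neuropilin-1 changed the chains. Both IL-6 receptor chains and the shared IL-2 and IL-15 chain rose, and the IL-21 receptor fell. Of the 8 chains 3 were called higher and 1 lower, where 5.79% of all genes were called, 2.91% higher and 2.88% lower. The median log2 change of the 8 was 0.17, against -0.01 over all genes. The alpha chains of the IL-2, IL-15 and IL-4 receptors were not called.

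Il6st was between 7.62 and 7.91 log2 (median 7.74) with Sema, against 7.17 to 7.46 (median 7.33) with IgG in WT cells. All 8 pairs were higher with Sema, as 3.03% of all genes were, and since all pairs share 1 mean, the groups then cannot overlap. The pair difference averaged 0.44 ± 0.08 (SE, n = 8 pairs, adjusted p = 0.00392), a 1.36-fold change. The call was lost with the mean of its annotated probe sets (0.17, adjusted p = 0.201), of which the dimmer ones gave 0.20 and -0.14. A further probe set, named through the other array type and not part of that mean, gave 0.43 (adjusted p = 0.0129).

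Il6ra was between 7.31 and 8.05 log2 (median 7.65) with Sema, against 6.77 to 7.51 (median 7.17) with IgG in WT cells, and the groups overlapped. It was higher in 7 of 8 pairs, with differences of -0.20 to 1.28, and averaged 0.50 ± 0.13 (SE, adjusted p = 0.0273). Pair 3 had the highest difference and pair 2, the pair with the conflicting genotype label, the lowest. Its second probe set changed by 0.32 ± 0.17 (adjusted p = 0.292).

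Il2rb was between 10.63 and 10.92 log2 (median 10.76) with Sema, against 10.30 to 10.59 (median 10.46) with IgG in WT cells. All 8 pairs were higher, by 0.04 to 0.62, with a mean of 0.30 ± 0.08 (SE, adjusted p = 0.0286). Another Il2rb probe set gave 0.33 (adjusted p = 0.0496). The third, at a mean of 8.44 log2, gave 0.14 ± 0.09 and did not pass (adjusted p = 0.434). Il2ra, the partner of Il2rb, was between 10.18 and 10.42 log2 (median 10.30) with Sema, against 10.09 to 10.34 (median 10.21) with IgG. Most of both ranges were shared. Its mean difference was 0.09 ± 0.08 (adjusted p = 0.579, 95% interval -0.07 to 0.25), higher in 6 of 8 pairs.

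Il21r was between 6.56 and 7.07 log2 (median 6.88) with Sema, against 7.05 to 7.55 (median 7.23) with IgG in WT cells, and the groups overlapped at their edges. It was lower in 7 of 8 pairs. Of all genes 4.36% were lower in all 8, and the share lower in 7 of 8 was not counted. The Il21r difference averaged -0.41 ± 0.10 (SE, adjusted p = 0.0163). Its chromosome 7 neighbour Il4ra changed by 0.03 ± 0.08 (adjusted p = 0.904, 4 of 8 pairs higher), and a brighter Il4ra probe set named through the other array type by 0.21 (adjusted p = 0.214). Il10ra changed by 0.25 ± 0.10 (adjusted p = 0.131, 7 of 8 pairs higher) and Il15ra by -0.05 ± 0.13 (adjusted p = 0.872). Il7r, through the carried-over name, was between 8.58 and 8.98 log2 (median 8.82) with Sema, against 8.31 to 8.71 (median 8.48) with IgG, and changed by 0.28 ± 0.09 (adjusted p = 0.0582, 6 of 8 pairs higher). With carried-over names 4 of 9 chains were called, 3 higher and 1 lower, where 5.97% of all genes were (3.08% higher, 2.88% lower).

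These calls rested in part on single pairs. Without WT pair 3 the number of chains called was 1, with Il2rb at 0.26 (adjusted p = 0.111), Il6ra at 0.38 (0.113) and Il21r at -0.37 (0.0676). Without pair 1 Il2rb (0.27, adjusted p = 0.0745) and Il6ra (0.47, 0.0708) were lost, and without pair 7 the same chains (0.28, 0.0847, and 0.46, 0.0771). Without pair 2 the count stayed at 4. Il6st was called without each pair in turn.

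Markers of myeloid cells moved with the treatment in WT cells. The summed signal of 16 myeloid markers in NRP KO was 10.60 to 10.86 log2 with Sema, against 10.40 to 10.66 with IgG, higher in 6 of 8 pairs (mean difference 0.11). In WT it was 10.63 to 10.99 log2 with Sema, against 10.26 to 10.60 with IgG, higher in 8 of 8 pairs (mean difference 0.36). Most of the sum came from Ctss, which averaged 10.32 log2 with Sema and 9.95 with IgG in WT. Of the single markers 13 were higher with Sema in WT and 3 lower (Cd14, Itgam and Spi1), with Lyz2 (0.81), Tyrobp (0.39) and Ctss (0.37) called. Of the 16 markers 7 had a mean at or below background, including Itgam, Adgre1 and Cd14. Myeloid cells also use Il6ra, Il6st and Il10ra, and the part of these markers in the result was not tested. The summed signal of 11 CD8 T cell and NK cell markers was 8.60 to 9.13 with Sema, against 8.93 to 9.52 with IgG in WT cells, higher in 1 of 8 pairs (-0.32), with Nkg7 called lower (-0.52). The within-pair difference of the Actb measure was -0.08 to 0.24 in NRP KO and -0.23 to 0.22 in WT, and with it as a covariate 4 chains were still called in WT.

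**Figure D4:**
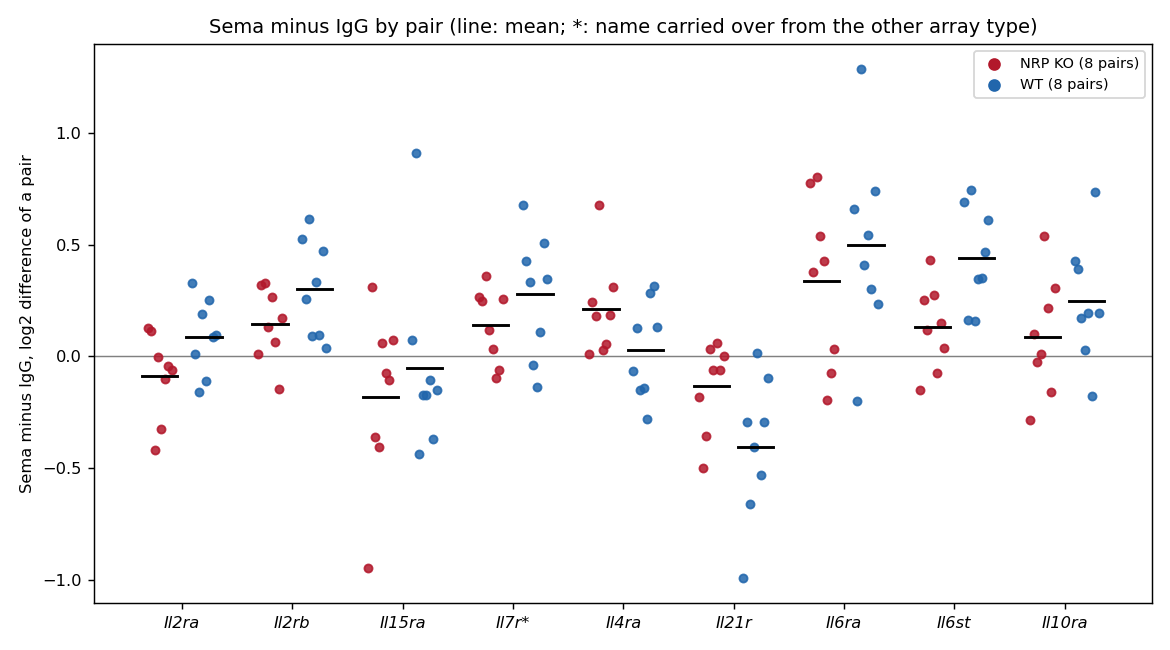
Sema minus IgG difference of each pair (y axis, log2) for 9 chains, with NRP KO pairs left of WT pairs and lines at the means. Il7r, marked with an asterisk, is named through the other array type. All 8 WT pairs lie above 0 for Il6st and Il2rb, 7 of 8 lie below 0 for Il21r, and the NRP KO pairs of the same chains lie nearer to 0 on average.

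In NRP KO cells no chain was called with Sema against IgG, where 0% of all genes were called by limma. At an unadjusted p under 0.05 there were 1787 genes, 2 of them among the 8 chains, Il6ra and Il4ra. Il6ra was between 7.31 and 7.81 log2 (median 7.61) with Sema, against 7.01 to 7.51 (median 7.21) with IgG, a difference of 0.34 ± 0.13 (adjusted p = 0.419, 6 of 8 pairs higher). Il4ra was between 6.08 and 6.41 log2 (median 6.17) with Sema, against 5.74 to 6.07 (median 5.98) with IgG, a difference of 0.21 ± 0.08 (adjusted p = 0.431). All 8 pairs of Il4ra were higher, as were those of 0.988% of all genes, but its brighter probe set named through the other array type changed by 0.08.

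The chains that were called in WT had values of the same sign in NRP KO and did not pass. Il6st was between 7.46 and 7.75 log2 (median 7.60) with Sema, against 7.32 to 7.61 (median 7.47) with IgG, a difference of 0.13 ± 0.08. Il2rb was between 10.54 and 10.77 log2 (median 10.69) with Sema, against 10.45 to 10.68 (median 10.53) with IgG, a difference of 0.14 ± 0.08, higher in 7 of 8 pairs. Il21r was between 6.81 and 7.09 log2 (median 7.03) with Sema, against 7.03 to 7.31 (median 7.09) with IgG, a difference of -0.13 ± 0.09, lower in 5 of 8 pairs. Il2ra (-0.09 ± 0.08), Il15ra (-0.18 ± 0.13), Il10ra (0.09 ± 0.10) and Il7r by its carried-over name (0.14, adjusted p = 0.569) also did not pass.

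Whether the response differed between the genotypes was tested directly, as the NRP KO mean of the pair differences minus the WT mean. None of the 8 chains passed, where 0% of all genes did (1015 genes had an unadjusted p under 0.05). Il6st, at 0.13 in NRP KO and 0.44 in WT, was the only chain with an unadjusted p under 0.05, with a difference of -0.31 ± 0.12 (95% interval -0.55 to -0.07, adjusted p = 0.791). Its further probe set, named through the other array type, was at 0.23 in NRP KO and 0.43 in WT, a difference of -0.21 (adjusted p = 0.889). The dimmer Il6st probe sets gave differences of 0.21 and -0.28. Il21r, at -0.13 in NRP KO and -0.41 in WT, differed by 0.27 ± 0.13 (95% interval -0.00 to 0.55, adjusted p = 0.830). For Il2rb the difference was -0.16 (95% interval -0.39 to 0.07) and for Il6ra -0.16 (-0.54 to 0.22). The response of these chains is therefore not shown to depend on the genotype, nor to be alike in both.

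Among related genes in WT cells with Sema, 4 of 19 other receptor chains were called higher and none lower: Il18r1, the IL-18 receptor (0.52), Il10rb, the second chain of the IL-10 receptor (0.36), Il17ra (0.28) and Crlf2, the partner of Il7r in the TSLP receptor (0.23). Stat4 (0.29) was the only one of 10 Janus kinases and STAT factors called. Of 16 feedback inhibitors and sheddases 4 were called higher and none lower, Socs3 (0.60 ± 0.12, adjusted p = 0.00488), Socs2 (0.30), Pias1 (0.29) and Cish (0.25). None of 12 measured cytokine ligands was called, with Il2 at -0.54 (adjusted p = 0.0865) and Il10 at -0.34 (adjusted p = 0.293). In NRP KO none of the genes on these lists was called, with Socs3 at 0.14 (adjusted p = 0.672).

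The experiments share no arrays, and their values for the same chains can be set side by side only as changes. Il2ra had the largest difference of the 9 chains against conventional cells (7.07 and 5.49) and an interval of -0.07 to 0.25 for Sema in WT. Il6ra was at -2.34 between activated and resting Treg and at 0.50 with Sema in WT. Il6st was positive in both (0.75 and 0.44), and Il2rb too (1.34 and 0.30). The brightest probe set differed between the array types for Il2ra, Il2rb and Il4ra, so levels cannot be compared across the experiments. The changes of these genes set side by side also come from different probe sets. The Il2ra probe set used with Sema is the dimmer one in the sorted cells, where it changed by 3.83 and 2.17 against conventional cells.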

How the data were processed

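The deposited values are log2 signals per probe set of 40 Affymetrix arrays, made with RMA and Partek 6.6 per the submitters' processing notes; nothing more on their making was found in the labels. The experiments used different array types and were fitted apart. The mean log2 value per array was 6.01 in the sorted cells and 4.78 to 4.80 in the ligand experiment; the number of arrays limits the precision. The platform annotation named the probe sets (34958 of 45101 and 28898 of 45141 had 1 gene, 932 and 551 had several, and the rest were unnamed here), with symbols from RefSeq (GRCm38.p6), keeping the brightest probe set per gene. For Il7r and further probe sets, names were carried over from same-numbered probe sets of the other array type, an alternative chosen after seeing the data; of 28165 such probe sets named on both, 99.3% had the same gene.

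The sorted cells were fitted with limma 3.58.1 (R 4.3.3) on 3 group means over 8 arrays, with 5 residual degrees of freedom. The ligand experiment was fitted on 16 Sema minus IgG pair differences, with 14. The pairing comes from the titles' neighbouring codes and the identical pair means. p-values were adjusted by Benjamini-Hochberg over all genes, or over all probe sets where a further probe set is given. The scripts were tested on simulated data. The log2 intervals are limma's 95% intervals.

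The members and lists were chosen with earlier results of these data known. Named genes were all members, up to 4 called genes per direction and other list, Foxp3, Ikzf2, Ctla4 and Nrp1, up to 3 called markers per direction, and the 3 nearest profiles of Il2ra and Il7r. Alternatives were the mean of all probe sets, a signal filter, a prior following the mean, quantile normalization, the Actb covariate, array weights, arrays as independent, blocks of like title codes or Actb class in the sorted cells (added after seeing the data), and leaving out each replicate or pair.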

Additional observations from a re-analysis of the deposited data

Results flagged for a closer look

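In 2 cases a single pair stood apart from the other 7 of its genotype. For Il15ra in WT cells the Sema minus IgG difference of pair 2 was 0.91, the highest of the 8, and its gap to the next pair was 0.622 of the whole range. Pair 2 is the one whose Sema array has a genotype label that conflicts with its title. Without it the mean Il15ra difference in WT was -0.19. For Il4ra in NRP KO cells the difference of pair 4 was 0.68, the highest of the 8, with a gap of 0.551 of the range, and without it the mean was 0.14. Chance flags about 1 in 20 groups of this size, and 16 groups of pair differences were looked at.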

How the results depend on the processing

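Over 856 recomputed values of single chains, 789 kept their direction and their side of the threshold, 23 lost a call, 20 gained one and 24 changed sign, all 24 without a call before or after; the causes were not tested except where noted. In activated against resting Treg, with 0 chains called, the count was 2 with the mean of all probe sets, 1 with a prior following the mean signal, 1 with the Actb covariate, 6 with array weights (957 genes in all, against 135) and 0 to 1 leaving out 1 array. The resting Treg against conventional count of 4 was 3 to 4, and the activated Treg against conventional count of 6 was 4 with the Actb covariate and 4 to 6 leaving out 1 array; where a conventional array was left out, the lone one was assumed to vary like the other groups. In all genes array weights gave 3005 calls against 1003 for the first and 5894 against 1765 for the second. The WT Sema count of 4 was 1 to 4 leaving out 1 pair (258 to 1069 genes, against 990; 4417 with no replicate block, 1654 above the median signal). With 32 arrays as independent, with no replicate block, which ignores the pairing and understates the error, 2 chains were called in NRP KO (1734 genes), 5 in WT and 1 in the NRP KO minus WT difference (530 genes), against 0, 4 and 0. Leaving out 1 pair gave 0 in NRP KO and in the difference.

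Signs turned as follows. Il21r reached 0.24 with the Actb covariate and -0.48 to 0.26 (0.01 and 0.14 without activated Treg 1 and 2) leaving out 1 array in activated against resting Treg, 0.60 and -0.46 to 0.28 (highest without resting Treg 1) in resting Treg against conventional cells, and 0.84 and -0.54 to 0.043 in activated Treg against conventional cells. With the Actb covariate Il6ra turned to 0.21 in resting Treg against conventional cells and Il10ra to 0.11 in activated Treg against conventional cells. In WT with Sema, Il15ra turned to 0.0014 with quantile normalization and to -0.19 to 0.0021 leaving out 1 pair, and Il4ra to -0.0136 to 0.071 (-0.0090 without pair 6). In NRP KO Il2ra turned to 0.0057 with the mean of its probe sets. In the NRP KO minus WT difference Il15ra ran from -0.20 to 0.0091 (highest without WT pair 2) and Il4ra to -0.13 with carried-over names. The replicate numbers of the sorted cells come from accession order and pair nothing. Arrays whose title codes differ in the last digit alone, and the Actb class, were used as blocks in fits added after seeing the data. The codes are not stated to mark a batch, and the deviations of arrays of such a code run correlated between -0.034 and 0.463 in 5 pairs. With the code runs as a replicate block (2 residual degrees of freedom) the counts were 1, 4 and 4 in activated against resting Treg, resting Treg against conventional and activated Treg against conventional cells (73, 1980 and 1983 genes), and with the Actb class (4 degrees) 1, 4 and 6 (318, 1633 and 1796 genes). Il21r turned to 0.30, 0.31 and 0.61 with the code runs and to 0.27, 0.26 and 0.53 with the class, and Il4ra to 0.11 with the code runs in activated against resting Treg.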
